A study of Mus musculus with 6 samples.

Results

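The genes described here are 31 genes that type I interferon is known to induce, from the antiviral OAS, IFIT and MX families to the RNA sensors, transcription factors, membrane proteins and enzymes that rise with them. The list was fixed by gene name, and a gene was measured where the platform annotation of a probe set named that gene alone. By this rule 28 of the 31 genes were measured, of 19938 genes in all, and each of the 28 had 1 probe set. Isg15 and Oas1g had only probe sets that name another gene as well, and Ifi44 was named by none used here.

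Type I interferons are secreted proteins that signal through a receptor of Ifnar1 and Ifnar2 subunits and the kinases Jak1 and Tyk2. The kinases activate Stat2, which joins Irf9 in a complex that binds a short promoter element, the interferon-stimulated response element, in front of the responding genes. Macrophages both make and answer these interferons, and they can be triggered by nucleic acids from engulfed cells as well as by viruses.

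Macrophages were profiled in 6 female mice of 6 to 12 weeks, with 1 array per animal. Starry-sky tumor-associated macrophages (SS-TAMs, 3 mice) came from subcutaneous tumors of the human Burkitt's lymphoma line BL2, grown to 1.44 cm2 in BALB/c SCID mice, a strain without mature lymphocytes of the T and B lineages. Germinal center macrophages (GCMs, 3 mice), the tingible-body macrophages that clear apoptotic B cells, came from CSF1R EGFP transgenic BALB/c mice that had received sheep red blood cells in 2 doses. Laser capture took 1000 cells per tissue, and the amplified RNA was hybridized to Affymetrix Mouse Gene 1.0 arrays. SS-TAMs were cut out by a CD68 stain and GCMs from germinal centers of the reporter strain, so tissue, host strain, immune status and the way of capture cannot be told apart in any difference given here. For the GCM arrays the tissue field and the protocols name the spleen, while the source field speaks of lymph nodes. No label says that SCID hosts without a tumor, or SS-TAMs from any other tumor line, were profiled.

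The median intensity over genes was between 6.3 and 6.7 on the 6 arrays, and a value near it was taken as a level and not as absence, since no detection calls were used. Of 20 core macrophage markers, 13 rose in SS-TAMs and 0 fell in the limma test, and their summed intensity was 2941 to 3816 on SS-TAM arrays against 1308 to 1479 on GCM arrays. T cell markers summed to 178.7 to 199.8 on SS-TAM arrays and to 1185 to 1630 on GCM arrays. The captured GCM material therefore carried transcripts of cells other than macrophages, and fewer cells of a type cannot be told apart from less RNA per cell. SS-TAM replicate 1 stood apart from the other SS-TAM arrays for the interferon response genes, and the changes that turn on it are given with and without it.

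Most interferon response genes lay slightly higher in SS-TAMs than in GCMs, and a few were several-fold higher. Ifit2, an RNA-binding antiviral protein, rose 5.12-fold and Oas2, an enzyme that senses viral RNA, rose 1.5-fold. Usp18, the enzyme that strips Isg15 from proteins and dampens the interferon receptor, was the gene that fell, to 0.804 of the GCM level. Ifit3 and Rsad2 had fold changes of 5.78 and 4.48 and did not pass the test with all 6 arrays. For both, SS-TAM replicate 1 lay far above replicates 2 and 3. With all arrays kept, both passed with dim genes left out, a trended and robust variance or array weights, and Rsad2 with quantile normalization. The median log2 fold change over the 28 genes was 0.36, beside 0.04 over all genes, and 24 of the 28 values were above 0 (21 with quantile normalization or median centring).

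Of the 28 genes, 2 (7.14%) rose, beside 5.16% of all genes in the same limma test. In the other direction 1 (3.57%) fell, beside 4.74% of all genes. Thus the share of genes called in either direction was close to that among all genes. All 3 SS-TAM arrays lay above all 3 GCM arrays for 11 of the 28 genes (39.3%), beside 18.5% of all genes, and below them for 2 (7.14%), beside 11.5%. The 11 genes were Oas1a, Oas2, Oasl1, Oasl2, Ifit2, Ifit3, Mx2, Eif2ak2, Irf7, Rsad2 and Cmpk2, and the pair that lay below was Usp18 and Ifi35. When the arrays were instead scaled to the core macrophage markers, leaving out Cd68 and Csf1r, the all-gene median log2 fold change became -1.33. The median of the 28 genes was then -1.01 and 21 of them changed sign. Of the 28 genes, 1 then lay above without overlap and 21 below. The share of all genes without overlap is not given for this scaling, which lowers nearly every gene, so these counts say nothing particular about the members. Ifit2, Ifit3 and Rsad2 passed the test as higher in SS-TAMs and 22 members as lower, beside 118 and 19579 of all 19938 genes.

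**Figure D1:**
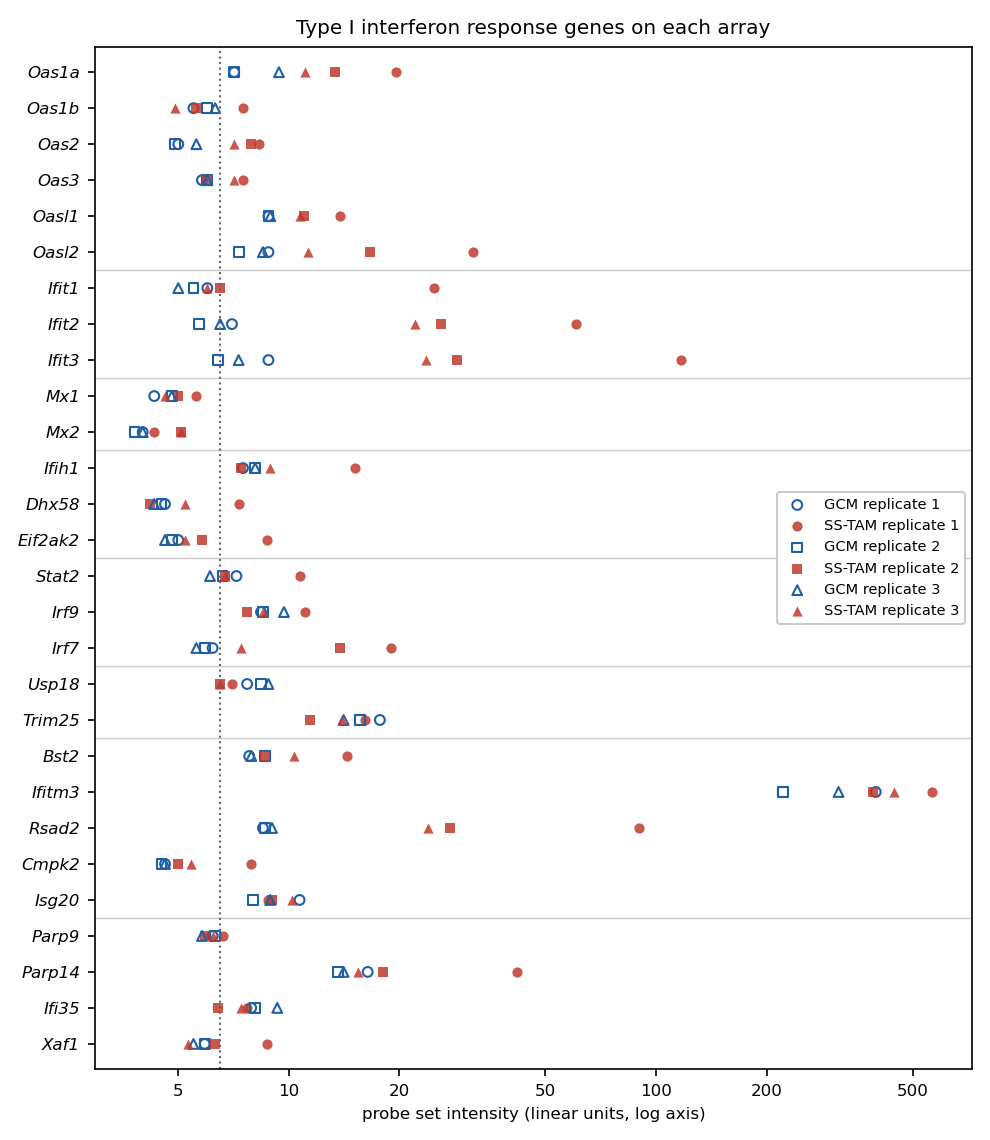
Intensity of the 28 measured interferon response genes (linear units on a log axis) on 3 SS-TAM arrays (filled symbols) and 3 GCM arrays (open symbols), with the replicate number given by the symbol's shape, thin lines between gene groups and a dotted line at the median of the arrays' gene medians. For Ifit3 the SS-TAM arrays lie at 117.0, 28.8 and 23.6 and the GCM arrays between 6.4 and 8.8, and the filled circles of SS-TAM replicate 1 lie to the right of the other SS-TAM arrays for 26 of the 28 genes.

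The IFIT genes, whose proteins bind viral RNA and block its translation, included the members with the largest log2 fold changes, Ifit3 and Ifit2. Ifit2 was at 60.5, 26.0 and 22.1 on SS-TAM replicates 1, 2 and 3 and at 7.0, 5.7 and 6.5 on GCM replicates 1, 2 and 3. All SS-TAM arrays lay above all GCM arrays, with SS-TAM replicate 1 the highest. Its log2 fold change was 2.36 ± 0.38 (SE, adjusted p = 0.0183), and 1.91 without SS-TAM replicate 1 (adjusted p = 0.00956). The adjusted p rose to 0.0646, 0.0879 and 0.0765 when GCM replicate 1, 2 or 3 was left out. In those fits the number of all genes called higher fell as well, from 1028 to 348, 271 and 303. Ifit3, which binds other IFIT proteins and stabilizes them, was at 117.0, 28.8 and 23.6 in SS-TAMs and at 8.8, 6.4 and 7.3 in GCMs. The groups did not overlap, yet SS-TAM replicate 1 was 4.49 times the geometric mean of replicates 2 and 3, and the log2 fold change of 2.53 ± 0.61 did not pass the test (adjusted p = 0.0574). Without SS-TAM replicate 1 the fold change fell to 3.51 and passed it (adjusted p = 0.0147). Ifit1, which recognizes RNA without a methylated cap, was at 24.9, 6.5 and 6.0 in SS-TAMs and at 6.0, 5.5 and 5.0 in GCMs. Here only SS-TAM replicate 1 lay clearly above the GCM arrays, replicate 3 had the same value as GCM replicate 1, and the log2 fold change of 0.85 ± 0.55 (adjusted p = 0.373) was 0.19 without SS-TAM replicate 1.

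The OAS enzymes make a short oligoadenylate that activates RNase L, and Oasl1 and Oasl2 are relatives of them, Oasl1 being known to hold back the translation of Irf7. Oas2 was at 8.3, 7.9 and 7.1 in SS-TAMs and at 5.0, 4.9 and 5.6 in GCMs. The SS-TAM arrays were close to each other and above every GCM array, with a log2 fold change of 0.59 ± 0.09 (adjusted p = 0.0142). The value was 0.54 without SS-TAM replicate 1 (adjusted p = 0.0368), while the adjusted p was 0.0624 without GCM replicate 1 and 0.0715 without GCM replicate 2. Under the core macrophage scaling the log2 fold change of Oas2 turned to -0.78, and Oas2 was dropped from the test when dim genes were left out. Oas1a was at 19.6, 13.4 and 11.1 in SS-TAMs and at 7.1, 7.1 and 9.4 in GCMs (log2 fold change 0.87 ± 0.23, adjusted p = 0.0742). Oasl2 was at 31.8, 16.6 and 11.3 in SS-TAMs and at 8.8, 7.3 and 8.5 in GCMs (1.15 ± 0.37, adjusted p = 0.119). Both had groups that did not overlap, with SS-TAM replicate 1 the highest, and neither passed the test. Oasl1 was at 13.8, 11.0 and 10.7 in SS-TAMs and at 8.8, 8.8 and 8.9 in GCMs, again without overlap (0.41 ± 0.11, adjusted p = 0.069). It passed the test without SS-TAM replicate 1, at a fold change of 1.23 (adjusted p = 0.0250). Oas1b, known for resistance to flaviviruses, and Oas3 had groups that overlapped, with log2 fold changes of 0.00 ± 0.16 and 0.20 ± 0.09. Oas3 passed the test only without SS-TAM replicate 2, at 0.30 (adjusted p = 0.0374).

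Rsad2 encodes viperin, which makes a nucleotide analog that ends viral RNA chains, and its neighbor Cmpk2 encodes a kinase that supplies the nucleotide. Rsad2 was at 89.8, 27.5 and 23.9 in SS-TAMs and at 8.5, 8.6 and 9.0 in GCMs. The GCM arrays were close to each other, all SS-TAM arrays lay above them, and SS-TAM replicate 1 was 3.50 times the geometric mean of the other SS-TAM arrays. The log2 fold change was 2.16 ± 0.50 (adjusted p = 0.0516). Without SS-TAM replicate 1 it was 1.56, a fold change of 2.95, and it passed the test (adjusted p = 0.00807). Cmpk2 was at 7.9, 5.0 and 5.4 in SS-TAMs and at 4.6, 4.5 and 4.6 in GCMs, without overlap and at a smaller log2 fold change of 0.39 ± 0.17 (adjusted p = 0.23).

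Bst2 (tetherin), which holds budding virions at the cell surface, was at 14.4, 8.6 and 10.3 in SS-TAMs and at 7.8, 8.6 and 7.9 in GCMs. SS-TAM replicate 2 had the value of GCM replicate 2, and the log2 fold change was 0.42 ± 0.19 (adjusted p = 0.228). Ifitm3, which blocks the entry of enveloped viruses from endosomes, was at 565.0, 388.8 and 445.1 in SS-TAMs and at 396.7, 221.7 and 314.2 in GCMs. The groups overlapped at SS-TAM replicate 2 and GCM replicate 1, and the log2 fold change was 0.61 ± 0.24 (adjusted p = 0.19). With quantile normalization it was 1.15 and passed the test (adjusted p = 0.0291). Isg20, an exonuclease that degrades RNA, overlapped fully, at 8.8 to 10.2 in SS-TAMs and 8.0 to 10.7 in GCMs. Mx2, a dynamin-like antiviral GTPase, was at 4.3, 5.1 and 5.1 in SS-TAMs and at 4.0, 3.8 and 4.0 in GCMs. It was 1 of 2 members, with Isg20, in which SS-TAM replicate 1 was not the highest SS-TAM array, and it passed the test without that array (log2 fold change 0.38, adjusted p = 0.0215, against 0.29 and 0.0919 with it). Its relative Mx1 overlapped between groups, at 4.6 to 5.6 and 4.3 to 4.8. Many laboratory mouse strains carry defective copies of Mx1 and Mx2.

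Of the transcription factors, Irf7, which drives interferon alpha genes and is itself induced by interferon, was at 19.0, 13.8 and 7.4 in SS-TAMs and at 6.2, 5.9 and 5.6 in GCMs. The groups did not overlap, but the SS-TAM arrays spread widely, and the log2 fold change was 1.08 ± 0.33 (adjusted p = 0.109). It was 0.78 without SS-TAM replicate 1 (adjusted p = 0.171), and it passed the test only without SS-TAM replicate 3, at 1.46 (adjusted p = 0.0201). Stat2 and Irf9, which act together at the response element, had log2 fold changes of 0.24 ± 0.20 and 0.02 ± 0.15. For Stat2, SS-TAM replicate 1 was at 10.7 and the other 5 arrays between 6.1 and 7.2. For Irf9, SS-TAM replicate 1 was at 11.1 and the other 5 arrays between 7.7 and 9.7. Thus both factors overlapped between groups apart from that array.

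The cytosolic RNA sensors were highest on SS-TAM replicate 1 as well. Ifih1 (MDA5), a sensor of long viral RNA, was at 15.1, 7.4 and 8.9 in SS-TAMs and at 7.5, 8.1 and 8.1 in GCMs, and Dhx58 (LGP2), its regulator, at 7.3, 4.2 and 5.2 against 4.6, 4.5 and 4.3. In both genes SS-TAM replicate 1 was the highest array and SS-TAM replicate 2 the lowest. Eif2ak2 (PKR), the kinase that stops translation upon RNA binding, was at 8.7, 5.8 and 5.2 in SS-TAMs and at 5.0, 4.8 and 4.6 in GCMs, without overlap (log2 fold change 0.42 ± 0.19, adjusted p = 0.242). None of these 3 genes passed the test with or without SS-TAM replicate 1.

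Of the Isg15 system, Usp18 and Trim25 were measured. Isg15 is a ubiquitin-like protein that is attached to other proteins, and Usp18 removes it. Usp18 was at 7.0, 6.5 and 6.5 in SS-TAMs and at 7.7, 8.4 and 8.8 in GCMs. Every SS-TAM array lay below every GCM array, and the log2 fold change was -0.31 ± 0.07 (adjusted p = 0.0493). The call was lost whichever 1 array was left out, with adjusted p from 0.0563 (without SS-TAM replicate 1) to 0.171 (without GCM replicate 2). Trim25, a ligase that activates the RNA sensor encoded by Ddx58, was at 16.1, 11.4 and 14.0 against 17.7, 15.6 and 14.1, with overlap (-0.20 ± 0.15, adjusted p = 0.433). Ifi35, which pairs with Nmi, was at 7.7, 6.4 and 7.4 in SS-TAMs and at 7.9, 8.1 and 9.3 in GCMs, below without overlap (-0.24 ± 0.10, adjusted p = 0.213).

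The remaining members overlapped between groups. Parp14, an ADP-ribosyltransferase, was at 41.7, 18.1 and 15.4 in SS-TAMs and at 16.4, 13.6 and 14.1 in GCMs. SS-TAM replicate 1 alone was far above the rest, and the log2 fold change of 0.63 ± 0.38 (adjusted p = 0.339) was 0.19 without it. Parp9, which works with Parp14, lay between 5.8 and 6.6 on all 6 arrays. Xaf1, a pro-apoptotic protein, was at 8.7 on SS-TAM replicate 1 and between 5.3 and 6.3 on the other 5 arrays.

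**Figure D2:**
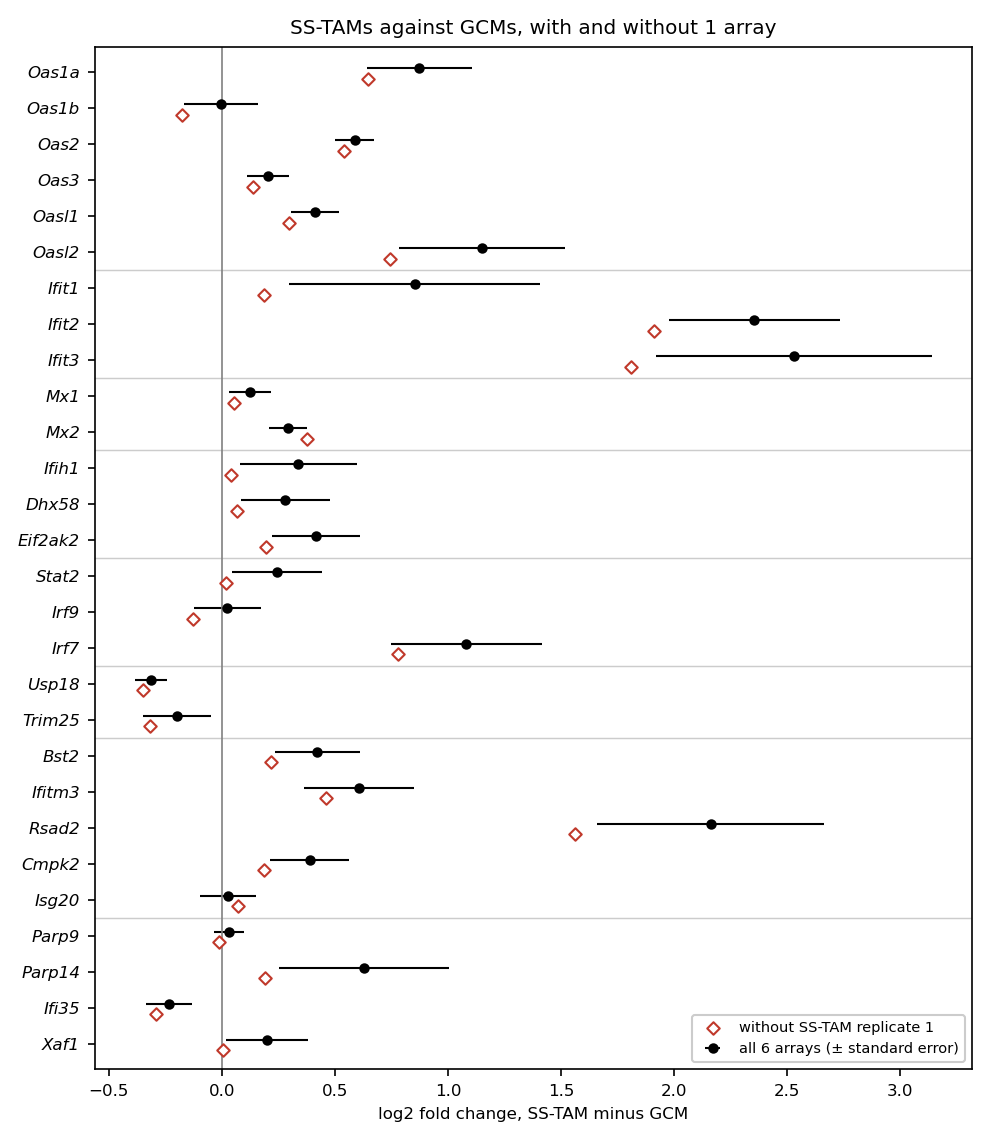
Log2 difference, SS-TAMs minus GCMs, for each measured interferon response gene over all 6 arrays (black points, bars are standard errors) and without SS-TAM replicate 1 (open diamonds). Ifit3, Ifit2 and Rsad2 lie at 2.53, 2.36 and 2.16, and at 1.81, 1.91 and 1.56 without that array. Ifit1 and Parp14 move from 0.85 and 0.63 to 0.19. Scaling to the core macrophage markers, which takes the all-gene median to -1.33, would place 21 of the 28 genes on the other side of 0.

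Leaving out SS-TAM replicate 1 lowered the differences and narrowed the spread. The median log2 fold change of the 28 genes was then 0.19, beside 0.04 over all genes. Of the 28 genes, 6 (21.4%) passed the test as higher, beside 5.81% of all genes, namely Ifit2, Ifit3, Mx2, Oas2, Oasl1 and Rsad2, and 0 as lower, beside 3.99% of all genes. This array was singled out after the values of these genes were seen, and it stood apart for more of them than of all genes. Leaving it out therefore narrows the spread of these genes in particular, so the shares that passed are not compared like for like. Both remaining SS-TAM arrays lay above all GCM arrays for 11 of 28 genes (39.3%), beside 26.6% of all genes. Relative to the GCM mean, the median log2 level of the 28 genes was 0.70 on SS-TAM replicate 1, 0.13 on replicate 2 and 0.20 on replicate 3. Fold changes of Ifit1, Ifih1, Dhx58, Stat2, Parp14 and Xaf1 were between 1.00 and 1.14 without SS-TAM replicate 1, while Ifit2, Ifit3 and Rsad2 were still 3.76-, 3.51- and 2.95-fold higher.

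The spread among SS-TAM mice was described after its values had been seen, so it carries no test. SS-TAM replicate 1 was the highest of the SS-TAM arrays for 26 of the 28 genes (92.9%), beside 29.4% of all genes, and the highest of all 6 arrays for 23. It was at least 1.5 times both other SS-TAM arrays for 9 of 28 genes (32.1%), beside 2.24% of all genes. No member was 1.5 times both others on SS-TAM replicate 2 or on replicate 3, where all genes gave 0.567% and 1.07%. The ratio of SS-TAM replicate 1 to the geometric mean of replicates 2 and 3 had a median of 1.51 over the 28 genes and 0.989 over all genes. Among the 19938 genes this ratio ranked Ifit3 at 5, Ifit1 at 9, Rsad2 at 14, Ifit2 at 50, Parp14 at 51 and Oasl2 at 73. At the other end, Isg20 ranked at 14137 and Mx2 at 17330. Of the 30 genes with the highest ratio, 3 were members, 4 were other pathway genes and the rest were on neither list. Siglec1, the interferon-induced macrophage lectin CD169, ranked at 4 with a ratio of 5.00, and its intensity was 71.2, 16.0 and 12.7 in SS-TAMs and 9.5, 6.9 and 8.6 in GCMs. The genes ranked above it, Tfec, Jag1 and Scd1, are not among the interferon genes listed.

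**Figure D3:**
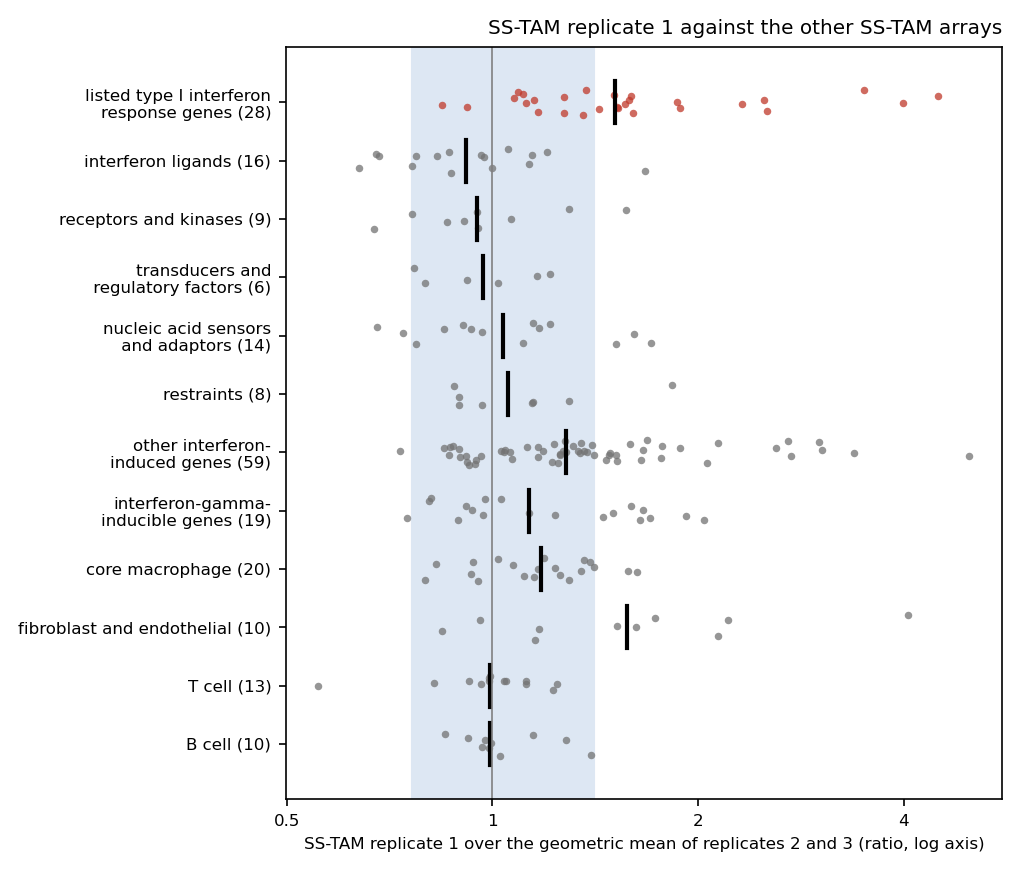
Ratio of SS-TAM replicate 1 to the geometric mean of SS-TAM replicates 2 and 3 (log axis) for each gene of the interferon response list, of the other pathway genes by role, and of cell type marker lists, with the number of genes in brackets, black ticks at medians and a shaded band from the 5th to the 95th percentile of all genes (0.762 to 1.41). The interferon response genes have a median of 1.51, and the fibroblast and endothelial markers a median of 1.57.

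Other transcripts moved with that array. Markers of fibroblasts and endothelium were highest on SS-TAM replicate 1 among SS-TAM arrays for 8 of 10 genes, beside 29.4% of all genes. The exceptions were endothelial, Cdh5 at 5.6, 7.7 and 5.7 on SS-TAM replicates 1, 2 and 3 and Kdr at 4.7, 4.8 and 5.0. Endothelial Pecam1, at 16.6, 15.3 and 13.5, lay below every GCM array. The 10 markers summed to 1135, 604 and 701 on SS-TAM replicates 1, 2 and 3, against 226.1 to 297.8 on GCM arrays. Most of the SS-TAM sums came from Sparc alone, at 831.0, 439.9 and 523.2. Lum, a matrix proteoglycan, was at 47.6, 10.8 and 12.7 on those SS-TAM arrays, and Col1a1, a collagen chain, at 62.4, 27.2 and 29.2. The core macrophage markers were highest on SS-TAM replicate 1 for 11 of 20 genes (55.0%), with a median ratio of 1.18. Their part in the result was not tested. Markers of plasmacytoid dendritic cells, known as strong producers of type I interferon, summed to 72.2 to 79.7 in SS-TAMs and 71.0 to 79.1 in GCMs, and their defining gene Siglech was at 10.7, 11.2 and 10.6 against 12.6, 12.2 and 13. Markers of neutrophils and monocytes summed to 51.1 to 55.8 and 46.3 to 50.6. Neither of these lists was higher on SS-TAM replicate 1 by its median ratio (0.977 and 1.00).

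Promoter stretches are shown for some of the 9 members that hold the core letters of the response element before the start. Stat2, Isg15 and Oas1g held them there as well and are not shown. The motif searched was GAAANNGAAA on either strand, read as TTTCNNTTTC where it lies on the other one. Promoter windows (250 bases before to 50 bases after the start, RefSeq, GRCm38.p6) were found for 23 of the 31 genes, and the motif was in 12 of their 27 windows (44.4%), beside 1131 of 32851 windows of all genes (3.44%). The stretches lie before the start and are given 5′ to 3′ along the gene's strand, with the motif matches in capitals and overlapping matches joined. They come from chr19:34583353-34583436 (plus strand) for Ifit3, chr19:34640765-34640833 (plus) for Ifit1, chr12:26456543-26456592 (minus) for Rsad2, chr5:120907526-120907565 (minus) for Oas1a, chr5:120777705-120777754 (minus) for Oas3 and chr8:71537567-71537622 (minus) for Bst2.
Ifit3: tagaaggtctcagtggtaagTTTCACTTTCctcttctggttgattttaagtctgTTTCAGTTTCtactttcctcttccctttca
Ifit1: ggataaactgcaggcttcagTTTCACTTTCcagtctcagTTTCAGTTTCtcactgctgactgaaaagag
Rsad2: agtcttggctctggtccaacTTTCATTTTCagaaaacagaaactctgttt
Oas1a: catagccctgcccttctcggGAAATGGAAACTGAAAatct
Oas3: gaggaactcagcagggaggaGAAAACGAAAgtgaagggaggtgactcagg
Bst2: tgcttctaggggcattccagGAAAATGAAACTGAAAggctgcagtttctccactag
Ifit1 and Ifit3 each held 2 separate matches, and Oas1a and Bst2 each held 2 overlapping ones. A match is a description of the letters. Ifit2, Irf7, Oasl1, Oasl2 and Cmpk2, whose SS-TAM arrays lay above all GCM arrays, had none in their windows. Of the genes shown, Ifit1, Oas3 and Bst2 held it and overlapped between groups. The table had no window for Oas1b, Oas2, Mx1, Mx2, Dhx58, Usp18, Parp9 and Parp14.

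The rest of the pathway was read from a list of 151 further genes, of which 131 were measured by probe sets naming 1 gene. Of the 131 genes, 10 (7.63%) rose, beside 5.16% of all genes, and 14 (10.7%) fell, beside 4.74%, and the median log2 fold change was 0.03. Without SS-TAM replicate 1 there were 10 (7.63%) that passed as higher, beside 5.81% of all genes, and 18 as lower, beside 3.99%. Under the core macrophage scaling 2 of the 131 rose and 118 fell, beside 118 and 19579 of all 19938 genes. Of the 24 genes called, Ifngr2, Jak2, Sting1, Tlr8, Tor3a, Ifi209, Epsti1, Nmi and Psmb8 passed the test whichever 1 array was left out, and the others missed it in at least 1 of those fits. None of the 16 measured ligand genes, the interferons themselves, was called with all 6 arrays. Ifnb1, the gene of interferon beta, was at 3.9, 4.8 and 4.2 in SS-TAMs and at 3.8, 3.9 and 4.0 in GCMs (adjusted p = 0.369), and Ifng, the gene of interferon gamma, at 4.7 to 5.7 and 5.4 (adjusted p = 0.669). The values of both genes were below the median intensity over genes. Of the ligands, 4 interferon alpha genes lay above without overlap (25.0%, beside 18.5% of all genes), namely Ifna5, Ifna13, Ifna14 and Ifna16. Ifna16 was at 13.2, 18.6 and 20.5 in SS-TAMs and at 9.7, 11.0 and 10.1 in GCMs (log2 fold change 0.74 ± 0.17, adjusted p = 0.0509), and without SS-TAM replicate 1, its lowest SS-TAM array, it passed the test at 0.93 (adjusted p = 0.0133). Interferon alpha genes are near-identical copies of each other, so which copy gave the signal is uncertain. Ifna5 was at 63.7, 41.2 and 35.2 in SS-TAMs and at 26.7, 31.8 and 29.1 in GCMs (log2 fold change 0.63 ± 0.22, adjusted p = 0.149). SS-TAM replicate 1 was the highest SS-TAM array for 3 of the 16 ligand genes (18.8%), Ifna5 among them, beside 29.4% of all genes. Among the other interferon-induced genes that array was the highest for 41 of 59 (69.5%).

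Among 9 receptor and kinase genes, 3 receptor subunits rose and 2 kinases fell. Ifnar2 was at 130.6, 109.0 and 173.9 in SS-TAMs and at 73.6, 73.4 and 79.0 in GCMs, and it rose by 0.85 ± 0.17 on the log2 scale (adjusted p = 0.0345). It did not pass the test without SS-TAM replicate 1 (adjusted p = 0.0817) or without any 1 GCM array. The other subunit, Ifnar1, was at 24.3, 24.3 and 29.4 against 23.1, 24.3 and 24.3 (0.12, adjusted p = 0.451). Ifngr2, a receptor subunit for interferon gamma, rose by 1.22 (adjusted p = 0.00502), and Il10rb, shared by the receptors for interleukin 10 and interferon lambda, by 1.32 (adjusted p = 0.0224, at most 0.0968 without 1 GCM array). Jak1 was at 101.8, 77.5 and 79.5 in SS-TAMs and at 198.1, 161.0 and 222.8 in GCMs, and its log2 level fell by 1.17 (adjusted p = 0.0110, and 0.0518 without GCM replicate 1). Jak2, the kinase of the interferon gamma receptor, was at 9.0, 9.4 and 7.6 against 29.0, 48.1 and 29.0, a fall to 0.251 of the GCM level (adjusted p = 0.00589). Tyk2 was at 5.0, 7.6 and 7.3 against 6.6, 6.3 and 8.0, with overlap. None of the 6 measured transducers and factors was called, Irf1, Irf3 and Irf8 among them, with log2 fold changes of -0.08, -0.27 and -0.14.

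Among 14 sensors and adaptors, Tlr8, an endosomal receptor for RNA, rose, at 26.3, 14.2 and 21.2 in SS-TAMs against 5.2, 4.9 and 4.9 (log2 fold change 2.00 ± 0.22, adjusted p = 0.00592). Sting1, the adaptor of cytosolic DNA sensing, fell, at 13.7, 15.4 and 14.1 against 26.3, 25.6 and 25.9 (-0.85 ± 0.06, adjusted p = 0.0017), and so did Aim2, a DNA sensor of the inflammasome (-0.92, adjusted p = 0.0381). The call on Aim2 was lost without SS-TAM replicate 1 (adjusted p = 0.101) or any other 1 array but GCM replicate 3. Ddx58, the gene of the RNA sensor RIG-I, was at 28.3, 19.8 and 13.9 against 17.6, 17.8 and 19.8, with overlap (adjusted p = 0.807). None of the 8 restraints of the pathway was called with all 6 arrays. Samhd1, which depletes nucleotides and restrains interferon induction, was at 132.0, 78.8 and 65.8 against 200.7, 153.7 and 162.6, below without overlap (-0.96 ± 0.27, adjusted p = 0.0868), and it passed the test as lower without SS-TAM replicate 1 (-1.25, adjusted p = 0.0222).

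Other interferon-induced genes were divided. Of 59 measured, 6 (10.2%) rose, beside 5.16% of all genes, namely Fcgr1, Slfn5, Ifitm2, Tor3a, Parp12 and Mlkl. In the other direction 7 (11.9%) fell, beside 4.74%, namely Epsti1, Ifi209, Nmi, Slfn1, Ifi203, Ms4a4c and Ifitm1. Without SS-TAM replicate 1 there were 5 that passed as higher, beside 5.81% of all genes, and 9 as lower, beside 3.99%. Fcgr1, the high-affinity Fc receptor, was at 60.9, 21.9 and 18.3 in SS-TAMs and at 5.7, 4.7 and 5.5 in GCMs (2.46 ± 0.45, adjusted p = 0.0271). It missed the threshold without SS-TAM replicate 2 or any 1 GCM array (adjusted p up to 0.113), at log2 fold changes no lower than 1.92 with any 1 array left out. Like Ifit2 and Ifit3 it was highest on SS-TAM replicate 1 and did not overlap between groups. Epsti1 was at 12.9, 9.2 and 10.5 in SS-TAMs and at 41.1, 68.7 and 76.0 in GCMs (-2.48 ± 0.26, adjusted p = 0.00493). Nmi, the partner of Ifi35, was at 13.1, 12.5 and 8.7 against 45.5, 73.7 and 45.1 (-2.24 ± 0.25, adjusted p = 0.00615). Both were far lower on every SS-TAM array, in the direction opposite to the IFIT genes and Rsad2.

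Genes that interferon gamma induces showed no increase that passed the test. Of 19 measured, 0 rose, beside 5.16% of all genes, and 3 (15.8%) fell, beside 4.74%, all of them catalytic subunits of the immunoproteasome that trims antigens for presentation. Psmb9 was at 147.7, 84.6 and 101.1 in SS-TAMs and at 285.6, 332.4 and 380.5 in GCMs (-1.61 ± 0.22, adjusted p = 0.0114, and up to 0.0628 without SS-TAM replicate 3, GCM replicate 2 or GCM replicate 3), and Psmb8 and Psmb10 fell by 1.72 and 0.93 on the log2 scale. All SS-TAM arrays lay below all GCM arrays for 7 of the 19 genes (36.8%), beside 11.5% of all genes, and above them for 1 (5.26%), beside 18.5%. Without SS-TAM replicate 1 there were 0 that passed as higher, beside 5.81% of all genes, and 4 as lower, beside 3.99%. The genes that fell did so beside T cell markers that were lower in SS-TAMs, with Cd3g at 6.5, 6.2 and 6.3 against 276.2, 411.1 and 376.5, and the part of T cell RNA in them was not tested.

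**Figure D4:**
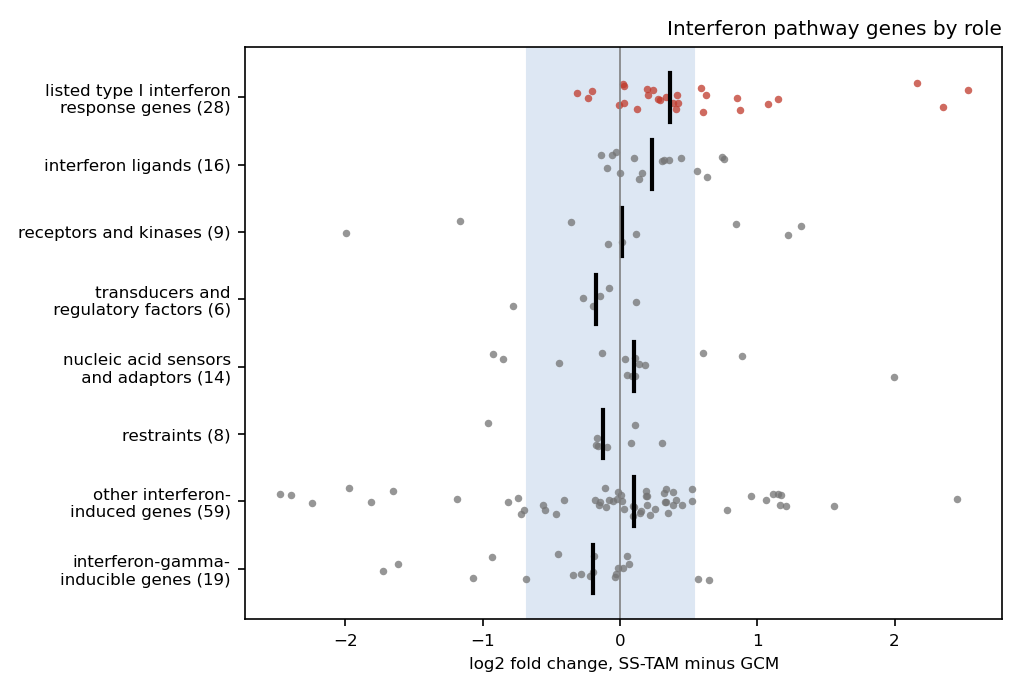
Log2 difference, SS-TAMs minus GCMs, for the interferon response genes (red) and of the other measured pathway genes by role (grey), with the number of genes in brackets, black ticks at medians and a shaded band from the 5th to the 95th percentile of all genes (-0.67 to 0.54). The interferon response genes have a median of 0.36 and the interferon-gamma-inducible genes one of -0.20. Under the core macrophage scaling the median of the interferon response genes is -1.01, beside -1.33 over all genes.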

How the data were processed

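The authors deposited linear intensity values for 28944 probe sets on 6 arrays, rounded to 1 decimal. Their processing notes name RMA and limma, with versions and genome build not given in the sources used here. Log2 was taken of these deposited intensities. Probe sets naming 1 gene (21789) were kept, those naming several (1621) or unnamed here (5534) were left out, and the probe set with the highest mean stood for each of 19938 genes. Groups came from the sample titles, each array being a separate animal, and were tested two-sided in R 4.3.3 through the lmFit and eBayes functions of limma 3.58.1, with Benjamini-Hochberg adjustment over all 19938 genes and a threshold of 0.05. Folds are ratios of geometric means, and the number of arrays limits the precision. An exact permutation test of 3 against 3 arrays cannot go below 0.1 and was not used. Code was tested on simulated data.

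The members and lists were chosen with earlier results of these data known. By the rule for named genes, any member may be named, as may the called pathway genes and a set of well-known ligands, receptors and factors with Siglec1. Lum, Col1a1, Sparc, Cdh5, Kdr, Pecam1, Siglech, Cd3g, Ddx58, Samhd1, the interferon alpha genes, Tfec, Jag1 and Scd1 were named after their values were seen. Alternatives covered scaling, dim genes, probe set choice, variance model, array weights, the replicate block and each array left out.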

Additional observations from a re-analysis of the deposited data

Results flagged for a closer look

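A probe set that names both Oas1a and Oas1g, and so took no part in the comparison, gave a signal above the GCM arrays, with a mean intensity over 3 arrays of 8.37 ± 0.322 (SD) in SS-TAMs and of 5.0 ± 0.1 in GCMs. Its values were 8.5, 8.0 and 8.6 on SS-TAM replicates 1, 2 and 3 and 5.0, 5.1 and 4.9 on GCM replicates 1, 2 and 3, without overlap. Groups of 3 arrays were not searched for outlying samples.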

How the results depend on the processing

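The number of genes that rose (2) was 4 with quantile normalization, dim genes left out, a trended and robust variance or array weights. Of all 19938 genes, 924 rose with quantile normalization, 1129 with the trended variance and 837 with array weights. With dim genes left out, 885 of 9969 rose. The added genes were Ifit3 and Rsad2 with the trended variance and with array weights, and Ifitm3 and Rsad2 with quantile normalization. With dim genes left out they were Ifit3, Oas1a and Rsad2 beside Ifit2, while Oas2 was itself left out as dim. With 1 array left out the number was 0 to 6, lowest without GCM replicate 1 or 2 and highest without SS-TAM replicate 1. Over all 19938 genes, 348, 271 and 303 rose without GCM replicate 1, 2 or 3, beside 1028 with all 6 arrays. Without SS-TAM replicate 1, 2 or 3 the all-gene numbers were 1159, 1060 and 878. The 1 gene that fell, Usp18, was not called with dim genes left out, with the trended variance or with array weights (0 genes each), nor with any 1 array left out (0 to 0). Scaling to the core macrophage markers gave 22 members that fell and 3 that rose, beside 19579 and 118 of all 19938 genes. All SS-TAM arrays lay below for 21 members and above for 1, and the median moved to -1.01. The same scaling gave 2 pathway genes that rose and 118 that fell. With dim genes left out, 7 members lay above without overlap, of 18 that remained in the test. With 1 array left out, 3 to 10 pathway genes rose and 8 to 18 fell, beside 271 to 1159 and 399 to 796 of all 19938 genes. In those fits 11 to 16 members lay above, 2 to 3 below, and the median was 0.19 to 0.48. All-gene shares without overlap are given only with all 6 arrays (18.5% above, 11.5% below) and without SS-TAM replicate 1 (26.6% above). Counts of members without overlap in the other settings, the core macrophage scaling among them, have no such share beside them. The core macrophage scaling turned the sign of 21 members, to -0.52 for Ifit1, -0.50 for Oas1a, -0.78 for Oas2, -1.17 for Oas3, -0.96 for Oasl1, -0.22 for Oasl2, -1.25 for Mx1, -1.08 for Mx2, -1.03 for Ifih1, -1.09 for Dhx58, -0.95 for Eif2ak2, -1.13 for Stat2, -1.35 for Irf9, -0.29 for Irf7, -0.95 for Bst2, -0.76 for Ifitm3, -0.98 for Cmpk2, -1.34 for Isg20, -1.34 for Parp9, -0.74 for Parp14 and -1.17 for Xaf1 (log2). These values stand beside the shift of all genes by -1.33 that this scaling makes. Same-numbered SS-TAM and GCM arrays deviated together only weakly (r = 0.090, 0.087 and 0.019 across genes), so the numbers were not taken as pairs, although each array correlated best with its own number. With the replicate block, 2 members rose, Ifit2 and Ifitm3 (adjusted p = 0.0442), 0 fell, and Oas2 missed the threshold (adjusted p = 0.0607). Log2 fold changes near 0 changed sign as well, with quantile normalization to -0.065 for Irf9, -0.040 for Isg20 and -0.036 for Parp9, with median centring to -0.043, -0.038 and -0.036 for these genes, and with 1 array left out over -0.18 to 0.13 for Oas1b, -0.13 to 0.13 for Irf9, -0.067 to 0.14 for Isg20 and -0.011 to 0.069 for Parp9. Taking the mean of probe sets and centring on the median changed no member's call. The causes of these differences were not tested.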

Other observations

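Further probe sets name 2 interferon genes and took no part in the comparisons. A probe set naming Isg15 and Gm9706 was at 8.8, 8.7 and 6.2 in SS-TAMs and at 6.6, 7.4 and 7.0 in GCMs, with overlap. One naming Ifi211 and Ifi204, both members of the family of interferon-inducible DNA-binding proteins, was at 18.5, 10.2 and 10.1 in SS-TAMs and at 8.3, 8.1 and 6.5 in GCMs, so all SS-TAM arrays lay above and SS-TAM replicate 1 was the highest.

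Probe sets for interferon-inducible GTPases lay the other way. The probe set for Tgtp2 and Tgtp1 with the higher values was at 63.7, 27.0 and 18.8 in SS-TAMs and at 114.2, 170.2 and 136.0 in GCMs. That for Irgm2 and Igtp was at 37.9, 9.2 and 12.6 against 43.0, 44.1 and 43.0, and that for Gbp2 and Gbp2b at 11.8, 7.3 and 6.8 against 16.2, 15.0 and 15.7. In all 3 the SS-TAM arrays lay below the GCM arrays, with SS-TAM replicate 1 the nearest to them. None of these values was tested, and probe sets naming several genes do not tell which gene gave the signal.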
